A study of Homo sapiens with 30 samples.

Results

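Macrophage-like THP-1 cells exposed for 24 h to multi-walled carbon nanotubes (MWCNT) were compared with the same cells exposed for 24 h to titanium dioxide nanobelts (TiO2-NB), both at 100 µg/ml. The arrays were chosen by their titles, 3 for each material, which makes 6 of the 30 arrays of the series. THP-1 is an established human monocytic leukaemia line. MWCNT are nested tubes of carbon, and TiO2-NB are ribbon-like titania particles.

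The series asked how THP-1 cells respond to either material at a lower and a higher dose, early and late. All cells, the controls included, had spent 24 h in 82 nM PMA, a phorbol ester that turns THP-1 monocytes into adherent macrophage-like cells. They were then replated and kept for 1 or 24 h with 0, 10 or 100 µg/ml of a material, in 10 groups of 3 arrays. RNA came from the cells still adherent after a wash, and the labels call the arrays of a group biological replicates without saying what they shared. All 30 arrays entered the fit. Besides the 6 arrays compared, levels or differences are given from the controls at 24 h and 1 h and from either material at 10 µg/ml and 24 h and at 100 µg/ml and 1 h. Values are log2 intensities of Affymetrix probe sets, a level is such a value, and a difference is MWCNT minus TiO2-NB unless stated. Errors of differences are standard errors and errors of levels are SDs, with n = 3 arrays per group throughout. The fit had 20 residual degrees of freedom and the median standard error of a difference was 0.103, so the number of arrays limits the precision. Arrays within either group correlated at 0.992 or higher, and arrays of different materials at 0.983 to 0.990. The leading principal component of the 6 arrays parted the materials and took 59.1% of the variance. The next took 25.3% and set replicate 1 of each material apart from replicates 2 and 3.

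Of 14 measured macrophage markers 5 were higher with MWCNT (35.7%, against 14.0% of all genes) and none with TiO2-NB (against 10.9%). The mean log2 level of the list was 10.19 to 10.27 on the MWCNT arrays and 9.91 to 9.97 on the TiO2-NB arrays. Against the 24 h control the median difference of the list was -0.09 for MWCNT and -0.42 for TiO2-NB, so TiO2-NB lay further from the control. CYBB, the catalytic subunit of the phagocyte oxidase, differed by 0.84 ± 0.08 (adjusted p = 8.72e-08 by limma), and its arrays did not overlap. CD163, the haemoglobin scavenger receptor, differed by 0.80 ± 0.15, and AIF1, an actin-binding protein of macrophages, by 0.73 ± 0.09. The calls of MSR1, a scavenger receptor (0.59 ± 0.21, adjusted p = 0.041), and CSF1R, the receptor of macrophage growth factor (0.24 ± 0.08, adjusted p = 0.0287), were lost without any 1 of the MWCNT arrays. Leaving out single arrays of either group left 3 or 4 markers higher with MWCNT. Without replicate 1 of TiO2-NB, or with arrays centred on their median or that of the tested genes, 1 marker was higher with TiO2-NB. No epithelial or lymphocyte marker was called, with group means of 4.60 to 7.01 and 4.85 to 7.05. Of 7 fibroblast markers 1 was called each way (14.3%), not far from the shares of all genes. PDGFRA, a growth factor receptor, was higher with MWCNT (1.33 ± 0.15), while its dimmer probe set was not called (0.24). FAP was lower (-0.83 ± 0.26, adjusted p = 0.023 by limma), a call lost without replicate 1 of MWCNT or replicates 2 or 3 of TiO2-NB. The part of these markers in the other results was not tested. In bulk RNA fewer cells of a type and less RNA per cell cannot be told apart.

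Several well-known programmes of macrophages recur in the comparison. The aryl hydrocarbon receptor (AHR) is a ligand-activated transcription factor that induces CYP1A1, CYP1B1 and TIPARP. Interferons act through STAT and IRF factors on genes that restrict viruses. NF-kappaB and AP-1 factors drive neutrophil-attracting CXC chemokines, the prostaglandin synthase COX-2 and immediate early genes, and SREBP factors drive cholesterol synthesis when membrane sterol is low.

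After 24 h at the higher dose the materials left different transcript profiles. Of 10050 genes tested 2505, or 24.9%, differed at an adjusted p under 0.05 in limma. MWCNT cells had more of 1411 transcripts (14.0%) and TiO2-NB cells more of 1094 (10.9%). Without replicate 3 of MWCNT the genes higher with TiO2-NB numbered 725, and 708 without replicate 1 of both materials. The split moved with the scaling. It was 1232 higher with MWCNT to 1376 higher with TiO2-NB when each array was centred on its median, and 1054 to 1646 when it was centred on the median of the tested genes. That median lay at 7.6 to 7.63 on the MWCNT arrays and at 7.55 to 7.57 on the TiO2-NB arrays. Called differences of at least 1.5-fold numbered 495 (4.93%), with 354 higher with MWCNT (3.52%) and 141 with TiO2-NB (1.40%). Those of at least 2-fold numbered 103 (1.02%), with 70 higher with MWCNT (0.697%) and 33 with TiO2-NB (0.328%). The 3 arrays of a material lay clear of the 3 of the other for 4104 genes (40.8%), with MWCNT above for 20.9% and below for 19.9%.

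Genes higher with MWCNT were led by TM7SF3, a membrane protein. It read 6.12, 6.42 and 6.46 on the MWCNT arrays, 4.98, 4.30 and 4.33 on the TiO2-NB arrays and 6.39, 6.59 and 6.15 on the control arrays. The difference was 1.80 ± 0.19, or 3.48-fold (adjusted p = 6.73e-07 by limma), and TiO2-NB was the low group, with MWCNT and control overlapping. Only 1 of the 3 TiO2-NB values of TM7SF3 exceeded its array's 25th percentile (4.77 to 4.91). NAA15, a subunit of an N-terminal protein acetyltransferase, had the same low group. It read 6.87, 6.89 and 6.41 with MWCNT, 5.59, 5.05 and 4.25 with TiO2-NB and 6.43, 7.04 and 7.08 in the control, a difference of 1.76 ± 0.29. ANKRD11, a chromatin regulator, read 7.03, 6.80 and 6.80 with MWCNT, 5.45, 5.35 and 5.53 with TiO2-NB and 7.33, 7.53 and 7.58 in the control, a difference of 1.44 ± 0.20. For ANKRD11 no group overlapped another, and the control was highest. FYB1, an adaptor of immune receptor signalling (1.5 ± 0.13), SPARCL1, a matrix glycoprotein (1.5 ± 0.22), THSD7A, a membrane protein with thrombospondin domains (1.52 ± 0.34), and ZNF12, a zinc finger protein (1.44 ± 0.24), also lay lowest with TiO2-NB. IL6R, the receptor of interleukin-6, differed by 1.47 ± 0.32, with TiO2-NB arrays spread from 7.05 to 9.05, and lost its call in a fit of the 6 arrays alone (adjusted p = 0.0601).

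For other leading genes MWCNT was the high group. VCAM1, an adhesion molecule that leukocyte integrins bind, read 7.30, 8.45 and 8.51 with MWCNT, 6.03, 6.40 and 6.58 with TiO2-NB and 5.71, 5.90 and 5.74 in the control. The difference of 1.75 ± 0.25 was 3.36-fold (adjusted p = 2.17e-05 by limma), and the MWCNT arrays overlapped neither other group. CCL19, a chemokine ligand of the receptor CCR7, read 5.79, 7.04 and 6.72 with MWCNT, 4.81, 5.26 and 4.86 with TiO2-NB and 5.14, 4.68 and 4.73 in the control, a difference of 1.54 ± 0.20. MMP8, a collagenase, read 7.62, 7.55 and 7.69 with MWCNT, 6.62, 5.94 and 6.0 with TiO2-NB and 5.93, 6.07 and 6.62 in the control, a difference of 1.43 ± 0.31. For CCL19 and MMP8 the TiO2-NB arrays overlapped the control arrays. CEMIP, which takes part in hyaluronan breakdown, read 10.54, 10.42 and 10.35 with MWCNT, 8.94, 8.58 and 8.62 with TiO2-NB and 9.54, 9.76 and 10.17 in the control. It differed by 1.73 ± 0.27 and the control lay between the materials. Against the control CEMIP fell with TiO2-NB (-1.11, adjusted p = 0.0035), while the difference of 0.61 for MWCNT was not called (adjusted p = 0.14).

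**Figure D1:**
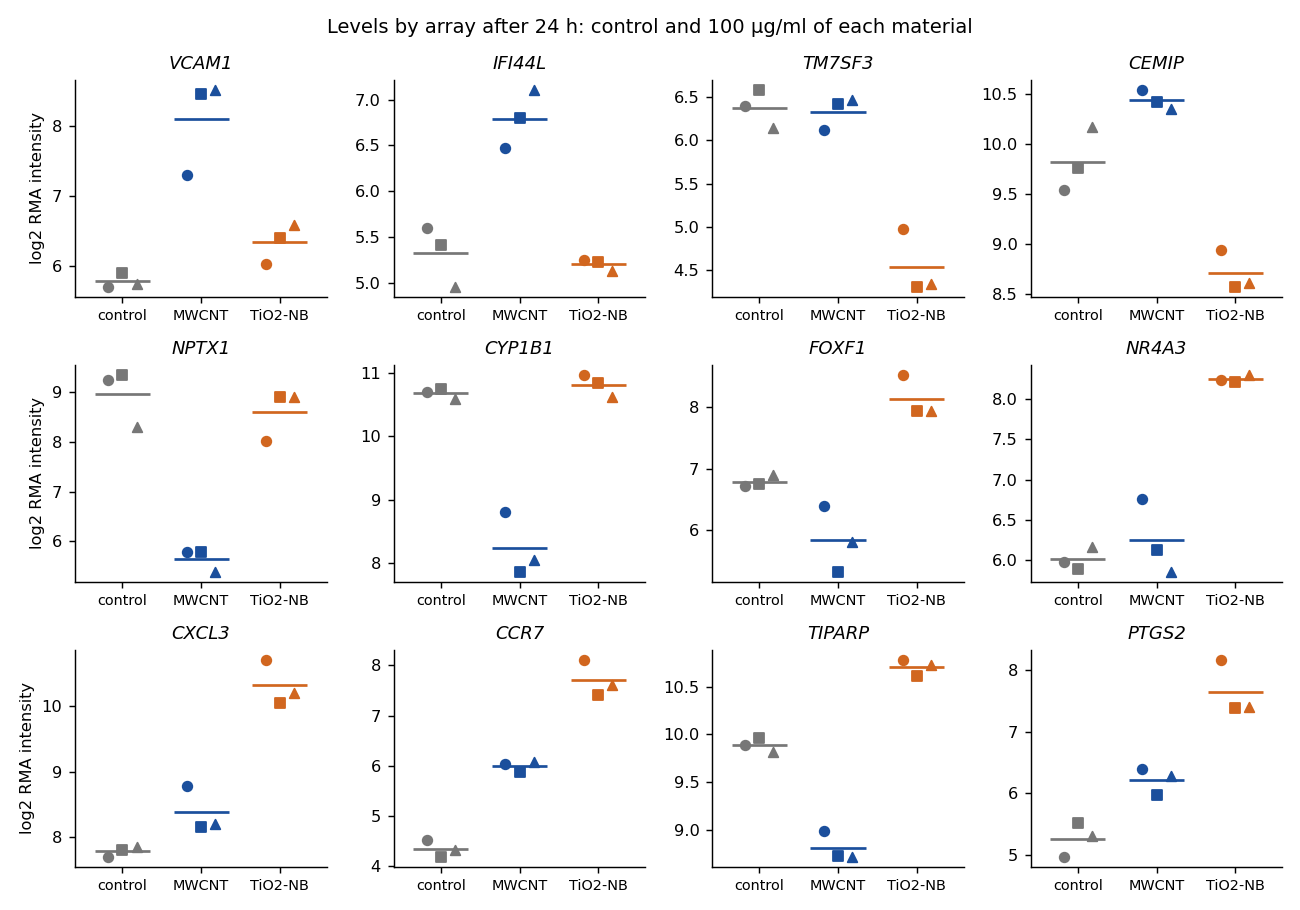
Log2 levels of 12 genes on the 3 control, 3 MWCNT and 3 TiO2-NB arrays at 24 h, with control in grey, MWCNT in blue and TiO2-NB in orange, a circle, square and triangle for replicates 1, 2 and 3 and a line at each group mean. TM7SF3 was lowest with TiO2-NB (4.30 to 4.98), NPTX1 lowest with MWCNT (5.39 to 5.80) and CXCL3 highest with TiO2-NB (10.04 to 10.70).

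Among genes higher with TiO2-NB, NPTX1, a neuronal pentraxin, had the largest difference. It read 5.80, 5.78 and 5.39 with MWCNT, 8.01, 8.91 and 8.91 with TiO2-NB and 9.24, 9.35 and 8.30 in the control. The difference was -2.95 ± 0.28, a level 7.75-fold higher with TiO2-NB (adjusted p = 8.03e-08 by limma). The MWCNT arrays stood alone, and the TiO2-NB and control arrays overlapped. THBD, the thrombin receptor thrombomodulin, had the same shape, at 9.12, 9.07 and 9.23 with MWCNT, 10.39, 10.94 and 10.94 with TiO2-NB and 10.74, 10.77 and 10.15 in the control. Its difference was -1.62 ± 0.25. FOXF1, a forkhead transcription factor, read 6.39, 5.33 and 5.81 with MWCNT, 8.52, 7.94 and 7.94 with TiO2-NB and 6.72, 6.75 and 6.90 in the control. Its difference was -2.29 ± 0.23, the control lay between the materials, and no group overlapped another. ARMC9, a protein of the ciliary base (-1.77 ± 0.12), TFAP2C, an AP-2 transcription factor (-1.65 ± 0.17), and HTR2B, a serotonin receptor (-1.47 ± 0.15), were called below the control with MWCNT and above it with TiO2-NB. Both comparisons with the control used arrays of the comparison of materials. In them 13.0% of genes were called for MWCNT (8.99% higher and 4.04% lower than the control) and 22.1% for TiO2-NB (10.9% higher and 11.1% lower).

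The opposite pattern, above the control with MWCNT and below it with TiO2-NB, was led by USP13, a deubiquitinating enzyme, with 1.43 ± 0.17 between the materials, 0.52 for MWCNT against the control and -0.91 for TiO2-NB. ARNT2, a partner of bHLH-PAS transcription factors, followed with 1.27 ± 0.09, 0.43 and -0.84. DACT1, a regulator of Wnt signalling (1.13 ± 0.17), HSD11B1, which regenerates active glucocorticoid (1.02 ± 0.13), and PPAT, which starts purine synthesis (1.02 ± 0.14), had the same pattern. Among the 15 genes with the largest differences higher with MWCNT the control mean lay above both materials for 8, between them for 5 and below both for 2. Among the 15 higher with TiO2-NB it lay below both for 7, between them for 7 and above both for 1.

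**Figure D2:**
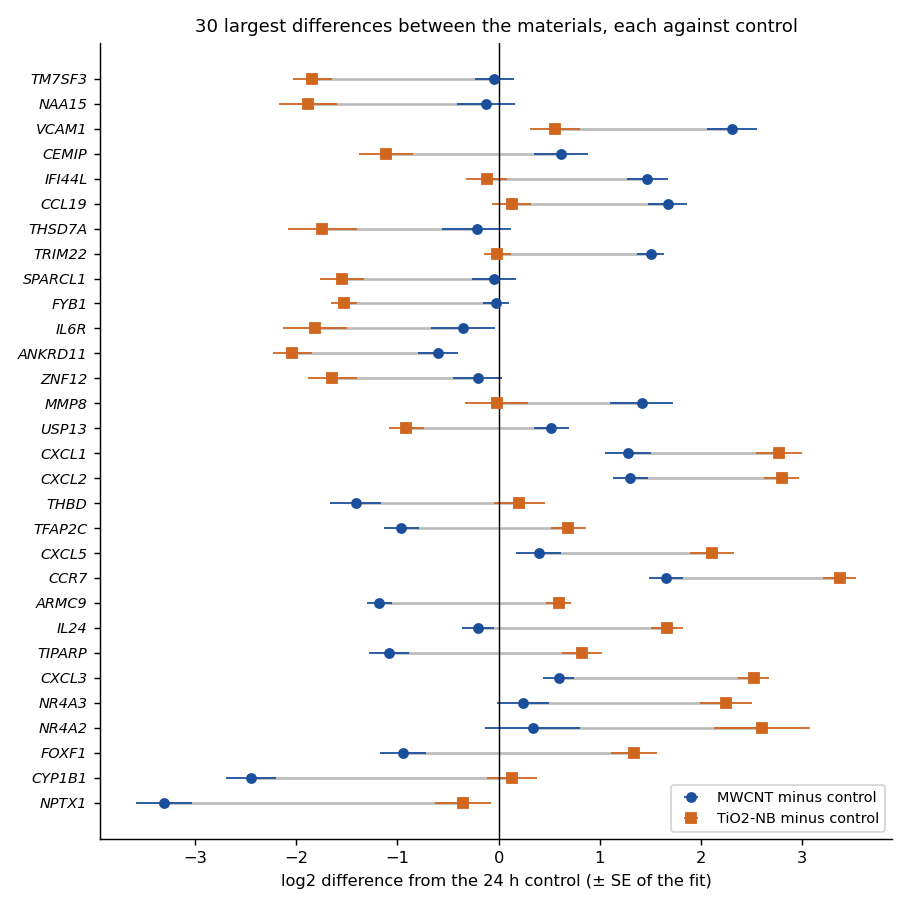
Log2 difference from the 24 h control for the 15 largest differences in each direction, with MWCNT in blue, TiO2-NB in orange and bars of 1 standard error. Both sets of points use the same control arrays, and NPTX1 shows -3.31 for MWCNT and -0.35 for TiO2-NB while TM7SF3 shows -0.04 and -1.84.

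Genes of the AHR pathway leaned towards TiO2-NB in the comparison of the materials. Of its 12 measured genes 7 were called, all higher with TiO2-NB (58.3%, against 10.9% of all genes). The median difference was -0.35, against -0.02 over all genes. Against the 24 h control the median of the list was -0.06 for MWCNT and 0.18 for TiO2-NB. With MWCNT the list as a whole thus lay near the control, although single members fell below it. CYP1B1, a cytochrome P450 that oxidises oestrogens and aromatic hydrocarbons, read 8.80, 7.86 and 8.04 with MWCNT, 10.97, 10.85 and 10.62 with TiO2-NB and 10.71, 10.74 and 10.59 in the control. That difference of -2.58 ± 0.25 was 5.97-fold (adjusted p = 8.72e-08 by limma), the MWCNT arrays lay apart, and the 4 probe sets of CYP1B1 gave -0.38, -1.92, -2.58 and -3.32. TIPARP, an ADP-ribosyltransferase that restrains AHR, read 8.98, 8.72 and 8.71 with MWCNT, 10.78, 10.62 and 10.73 with TiO2-NB and 9.89, 9.96 and 9.81 in the control. It differed by -1.91 ± 0.20, with the control between the materials and no overlap. NQO1, a quinone reductase, read 9.79, 9.52 and 9.56 with MWCNT, 10.76, 10.55 and 10.50 with TiO2-NB and 9.97, 10.00 and 10.24 in the control, a difference of -0.97 ± 0.09, again without overlap.

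The receptor itself moved less. AHR read 8.94, 8.77 and 8.87 with MWCNT, 9.37, 8.95 and 9.21 with TiO2-NB and 8.31, 8.54 and 8.35 in the control, so both materials lay above the control. Its difference of -0.31 ± 0.10 (adjusted p = 0.0233) lost its call without replicates 2 or 3 of MWCNT or 1 or 3 of TiO2-NB (adjusted p = 0.0931, 0.0545, 0.134 and 0.0701). IDO1 (-0.48 ± 0.13), an enzyme of tryptophan breakdown, lost its call without replicate 2 of TiO2-NB (adjusted p = 0.0611), and STC2 (-0.38 ± 0.11), a secreted glycoprotein, without replicate 2 of MWCNT (adjusted p = 0.0563) or 1 of TiO2-NB (adjusted p = 0.0966). CYP1A1, the classical AHR target, read 4.95, 4.84 and 4.80 with MWCNT and 5.03, 5.23 and 4.93 with TiO2-NB and was not called (-0.20 ± 0.11, adjusted p = 0.179). ARNT, the partner of AHR, was not called either (-0.08 ± 0.07). The count was 5 to 7 when single arrays were left out and 4 without replicate 1 of both materials or in a fit of the 6 arrays alone. AHR, NFE2L2, STC2, CYP1A1 and ARNT were named after their values were seen.

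AHR binds DNA at the xenobiotic response element, searched here as TNGCGTG on both strands of 300-base promoters (250 bases before and 50 after the start) from RefSeq on GRCh38.p14. Among the 5 called members with a promoter there, 3 held a match (NQO1, NFE2L2 and STC2). The whole list, called or not, held one in 3 of 9 promoters (33.3%). CYP1B1 and TIPARP, the largest differences of the list, were not among the members with a match. The share was 5.51% of all 27305 promoters, 7.13% of all genes tested, 8.33% of genes higher with MWCNT and 6.66% of genes higher with TiO2-NB. The NQO1 promoter is shown because this gene had the largest difference among the 3, with the match in capitals on the opposite strand.
NQO1, chr16:69726511-69726810, minus strand: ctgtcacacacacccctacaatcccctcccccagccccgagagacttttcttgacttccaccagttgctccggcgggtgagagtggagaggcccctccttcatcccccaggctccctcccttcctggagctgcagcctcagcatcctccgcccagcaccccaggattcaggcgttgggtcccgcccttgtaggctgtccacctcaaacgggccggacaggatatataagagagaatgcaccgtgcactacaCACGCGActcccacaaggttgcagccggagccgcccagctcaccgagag
A match is a description of the letters and not a bound site.

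Neutrophil-attracting CXC chemokines were higher with TiO2-NB, and both materials lay above the control in several of them. Of 13 measured CXC chemokines 6 were higher with TiO2-NB (46.2%) and 2 with MWCNT, with a median of -0.58. CXCL3 read 8.78, 8.15 and 8.21 with MWCNT, 10.70, 10.04 and 10.19 with TiO2-NB and 7.70, 7.81 and 7.86 in the control, a difference of -1.93 ± 0.15 (adjusted p = 8.52e-09 by limma). CXCL2 read 9.08, 8.70 and 8.69 with MWCNT, 10.68, 10.10 and 10.19 with TiO2-NB and 7.18, 7.54 and 7.86 in the control, a difference of -1.50 ± 0.17. CXCL1 read 9.40, 8.83 and 8.92 with MWCNT, 11.04, 10.26 and 10.33 with TiO2-NB and 7.61, 7.70 and 8.01 in the control, a difference of -1.49 ± 0.23. In all of CXCL1, CXCL2 and CXCL3 the 3 groups were ordered control, MWCNT, TiO2-NB with no overlap. CXCL5, a ligand of the same receptor, stood above both other groups with TiO2-NB while those overlapped, at 3.61, 3.67 and 3.94 with MWCNT, 4.97, 5.39 and 5.99 with TiO2-NB and 3.38, 3.70 and 2.95 in the control (-1.71 ± 0.22 between the materials). CXCL5 passed the filter on dim probe sets, a level above the 25th percentile of the array (4.77 to 4.91), on those 3 TiO2-NB arrays and no other of the 30. It therefore entered the test through the group where it is high, it is part of the count of 6, and its difference is taken against values below that level. CXCL8, interleukin-8, was bright everywhere, at 12.74, 12.41 and 12.56 with MWCNT, 13.34, 12.83 and 13.15 with TiO2-NB and 12.16, 12.14 and 12.24 in the control. Its difference was -0.54 ± 0.11 (adjusted p = 0.000968). CXCL6 (-0.63 ± 0.22, adjusted p = 0.034) was not called after cyclic loess or without replicates 1 or 2 of MWCNT or 1 or 3 of TiO2-NB (adjusted p = 0.0981, 0.09, 0.104, 0.143 and 0.0813), so that 5 or 6 members were called when single arrays were left out.

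CXCL10, an interferon-induced ligand of the T cell receptor CXCR3, went the other way. It read 7.47, 8.04 and 8.26 with MWCNT, 6.46, 6.49 and 6.57 with TiO2-NB and 6.11, 6.14 and 6.01 in the control, and differed by 1.42 ± 0.20 (adjusted p = 1.59e-05). CXCL13, a B cell chemokine, read 4.50, 4.84 and 4.51 with MWCNT and 3.25, 3.36 and 3.21 with TiO2-NB. Its arrays did not overlap, but the call (1.34 ± 0.45, adjusted p = 0.0325) was lost without any 1 of the 6 arrays, at an adjusted p of 0.0589 to 0.096. Of the 6 arrays compared only 1, from MWCNT, lay above the 25th percentile for CXCL13. CXCL6, CXCL10 and CXCL13 were named after their values were seen.

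The kappaB element, the DNA site of NF-kappaB, was searched as GGNNTTTCC. It stood in the promoters of 7 of the 8 called CXC chemokines, and in 7 of 12 promoters of the whole list (58.3%). The share was 6.26% of all promoters, 6.47% of all genes tested, 7.1% of genes higher with MWCNT and 6.66% of genes higher with TiO2-NB. CXCL10, which was higher with MWCNT, was among the 7. In CXCL1, CXCL2 and CXCL3 there were 2 matches each, at nearly the same distance from the start. The promoters with the largest differences are shown with the matches in capitals.
CXCL3, chr4:74038640-74038939, minus strand: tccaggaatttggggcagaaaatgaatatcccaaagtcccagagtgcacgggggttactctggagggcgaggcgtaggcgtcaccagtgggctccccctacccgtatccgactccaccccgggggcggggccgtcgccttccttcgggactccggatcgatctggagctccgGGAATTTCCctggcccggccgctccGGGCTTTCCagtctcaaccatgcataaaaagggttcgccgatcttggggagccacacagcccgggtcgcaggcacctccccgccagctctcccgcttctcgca
CXCL5, chr4:73998628-73998927, minus strand: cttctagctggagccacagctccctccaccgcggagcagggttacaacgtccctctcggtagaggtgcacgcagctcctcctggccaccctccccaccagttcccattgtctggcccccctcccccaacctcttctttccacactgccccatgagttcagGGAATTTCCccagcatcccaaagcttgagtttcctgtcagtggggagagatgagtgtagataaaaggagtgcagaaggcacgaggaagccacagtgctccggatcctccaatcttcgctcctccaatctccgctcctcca
Matches of different motifs overlapped in 73 promoters of the table.

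Other NF-kappaB and immediate early genes leaned the same way as these chemokines. Of 19 NF-kappaB subunits and feedback targets 7 were higher with TiO2-NB (36.8%) and none with MWCNT, with a median of -0.20. IRF1, an interferon regulatory factor, read 8.05, 7.60 and 7.59 with MWCNT, 8.72, 8.48 and 8.51 with TiO2-NB and 7.85, 7.92 and 8.11 in the control (-0.83 ± 0.14). TNFAIP2 (-0.55 ± 0.10), the subunit RELA (-0.52 ± 0.08) and CD83, a marker of mature dendritic cells (-0.51 ± 0.06), followed. A dimmer probe set of TNFAIP2 was not called (-0.25). The inhibitor gene NFKBIA (-0.11) and the subunit NFKB1 (-0.14) were not called. The count was 6 to 8 when single arrays were left out.

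Of 31 immediate early and AP-1 factors 11 were higher with TiO2-NB (35.5%) and 3 with MWCNT, with a median of -0.20. The NR4A orphan nuclear receptors led. NR4A2 read 4.42, 4.81 and 4.67 with MWCNT, 6.91, 6.73 and 7.05 with TiO2-NB and 4.42, 4.13 and 4.33 in the control, a difference of -2.26 ± 0.47 (adjusted p = 0.00123 by limma). NR4A3 read 6.76, 6.12 and 5.85 with MWCNT, 8.24, 8.22 and 8.31 with TiO2-NB and 5.97, 5.88 and 6.16 in the control, a difference of -2.01 ± 0.26. In both the TiO2-NB arrays stood above the other groups, and for NR4A2 the MWCNT and control arrays all lay below the 25th percentile of their array. NR4A1 (-0.51 ± 0.07) and the stress factor ATF3 (-1.0 ± 0.15), named after their values were seen, were called in the same direction. Of the other probe sets of NR4A1, that at -0.38 was called and that at -0.04 was not. EGR3 (-1.18 ± 0.35, adjusted p = 0.016) lost its call without replicates 2 or 3 of MWCNT or 3 of TiO2-NB (adjusted p = 0.0543, 0.0585 and 0.0512). The classical early genes FOS (-0.14) and EGR1 (-0.20) were not called. MYC, a driver of growth, was higher with MWCNT (0.58 ± 0.14), except in a fit of the 6 arrays alone. The count of 11 became 8 to 12 when single arrays were left out.

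Cytokine ligands divided. Of 21 measured 7 were higher with TiO2-NB (33.3%) and 4 with MWCNT (19%). IL24, a cytokine of the IL-10 family, read 5.38, 5.31 and 5.27 with MWCNT, 7.67, 7.05 and 6.85 with TiO2-NB and 5.56, 5.46 and 5.56 in the control, a difference of -1.87 ± 0.16. TNFSF9, the ligand of the co-stimulatory receptor 4-1BB, differed by -1.32 ± 0.12, and CSF1, the macrophage growth factor, by -0.99 ± 0.18. Of the other probe sets of CSF1, that at -0.39 was called and those at -0.23 and -0.12 were not. TNF read 9.71, 9.36 and 9.39 with MWCNT, 10.66, 10.11 and 10.19 with TiO2-NB and 8.51, 8.69 and 9.31 in the control, a difference of -0.83 ± 0.21 (adjusted p = 0.00482). IL1B, at 13.44, 13.79 and 13.81 with MWCNT and 13.76, 13.94 and 13.93 with TiO2-NB, was not called (-0.19 ± 0.20) and lay near the top of the intensity scale, whose highest value was 14.42. On the MWCNT side the death ligand TNFSF10 (1.09 ± 0.28, adjusted p = 0.00607) lost its call without replicate 3 of MWCNT and in a fit of the 6 arrays alone. Leaving out replicates 2 or 3 of MWCNT left 2 of the 4 members higher with MWCNT. EBI3, a subunit of IL-27, was not called (1.26 ± 0.52, adjusted p = 0.0807) but was with the replicate number as a block (adjusted p = 0.00204). Its arrays read 10.33, 10.82 and 10.87 with MWCNT and 9.37, 9.41 and 9.47 with TiO2-NB.

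Of 11 CC chemokines 3 were higher with MWCNT (27.3%) and none with TiO2-NB. Apart from CCL19 these were CCL8 (1.10 ± 0.26, adjusted p = 0.00339, and 0.0732 in a fit of the 6 arrays alone), whose MWCNT and TiO2-NB arrays overlapped, and CCL23 (0.40 ± 0.14, adjusted p = 0.0425), whose call was lost without replicates 2 or 3 of MWCNT or 1 or 3 of TiO2-NB. With the replicate number as a block 5 were higher with MWCNT and 2 with TiO2-NB. The monocyte chemokine CCL2 (-0.48 ± 0.22, adjusted p = 0.11) was not called. CCR7, the receptor of CCL19, read 6.04, 5.87 and 6.07 with MWCNT, 8.11, 7.42 and 7.61 with TiO2-NB and 4.52, 4.18 and 4.33 in the control. It was higher with TiO2-NB (-1.72 ± 0.17, adjusted p = 1.07e-07 by limma), while its ligand CCL19 was higher with MWCNT, and no group overlapped another for CCR7.

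In the prostaglandin and leukotriene pathway 1 of 18 genes was higher with MWCNT (5.56%) and 2 with TiO2-NB (11.1%), below and near the 14.0% and 10.9% of all genes. The count is therefore no result about the pathway, and single members are given. PTGS2, which encodes COX-2, read 6.40, 5.98 and 6.28 with MWCNT, 8.16, 7.38 and 7.41 with TiO2-NB and 4.97, 5.52 and 5.31 in the control (-1.43 ± 0.18). PLA2G7, which inactivates platelet-activating factor, read 6.88, 7.46 and 7.61 with MWCNT, 8.70, 8.77 and 8.74 with TiO2-NB and 7.86, 8.03 and 7.28 in the control (-1.42 ± 0.22). LTA4H, which makes leukotriene B4, was higher with MWCNT (0.49 ± 0.11). The arrays of PTGS2, PLA2G7 and LTA4H did not overlap between the materials.

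Interferon-stimulated antiviral genes were higher with MWCNT. Of 35 measured 26 were called, all higher with MWCNT (74.3%, against 14.0% of all genes), and the median difference was 0.59. IFI44L, an interferon-induced protein, read 6.47, 6.80 and 7.11 with MWCNT, 5.25, 5.23 and 5.13 with TiO2-NB and 5.60, 5.41 and 4.96 in the control, a difference of 1.59 ± 0.20 (adjusted p = 5.61e-06 by limma). TRIM22, an antiviral ubiquitin ligase, read 7.53, 8.18 and 8.30 with MWCNT, 6.64, 6.43 and 6.39 with TiO2-NB and 6.43, 6.65 and 6.42 in the control, a difference of 1.52 ± 0.13. In both the MWCNT arrays stood above the rest, and TiO2-NB overlapped the control. IFI44 read 8.46, 8.91 and 9.12 with MWCNT, 7.47, 7.36 and 7.49 with TiO2-NB and 7.31, 7.50 and 7.09 in the control (1.40 ± 0.20), while its dimmer probe set was not called (0.40). IFIT1, which binds viral RNA, read 7.08, 8.01 and 8.05 with MWCNT, 6.36, 6.39 and 6.67 with TiO2-NB and 6.33, 6.55 and 5.29 in the control (1.23 ± 0.28). MX1, a GTPase that blocks viral replication (0.95 ± 0.22), and ISG15, a ubiquitin-like modifier (0.88 ± 0.12), named after their values were seen, were also highest with MWCNT. In all 6 of these genes replicate 1 was the lowest of the MWCNT arrays. The 9 members not called ran from -0.28 (IRF7) to 0.40 (IFI6). The count was 22 to 28 when single arrays were left out, and 26 without replicate 1 of both materials.

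The interferon response element was searched as GAAANNGAA. Among the 22 called members with a promoter there, 15 held a match (68.2%). The whole list, called or not, held one in 18 of 26 promoters (69.2%). Holding a match thus did not set the called members apart from the rest of the list. The share was 8.29% of all promoters, 6.66% of all genes tested, 8.58% of genes higher with MWCNT and 5.76% of genes higher with TiO2-NB. The neighbouring promoters of IFI44L and IFI44, the largest differences with a match, are shown with the matches in capitals. Those of IFI44L read in the direction of the gene and that of IFI44 on the opposite strand.
IFI44L, chr1:78620198-78620497, plus strand: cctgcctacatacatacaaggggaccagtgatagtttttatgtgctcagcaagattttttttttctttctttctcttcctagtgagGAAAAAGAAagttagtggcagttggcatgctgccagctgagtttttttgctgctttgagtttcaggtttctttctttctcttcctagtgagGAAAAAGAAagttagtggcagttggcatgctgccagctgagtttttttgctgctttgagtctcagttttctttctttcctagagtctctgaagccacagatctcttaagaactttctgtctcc
IFI44, chr1:78649539-78649838, plus strand: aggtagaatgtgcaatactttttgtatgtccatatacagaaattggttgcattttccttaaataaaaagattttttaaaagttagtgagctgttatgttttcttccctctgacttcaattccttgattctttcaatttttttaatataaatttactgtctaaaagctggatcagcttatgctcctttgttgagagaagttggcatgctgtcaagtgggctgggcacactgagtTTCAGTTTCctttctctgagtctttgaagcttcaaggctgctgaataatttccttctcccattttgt

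Cell cycle genes were higher with MWCNT. Of 34 genes of DNA replication and S phase 22 were called, all higher with MWCNT (64.7%), with a median of 0.53. TYMS, which makes thymidylate for DNA, read 10.34, 9.99 and 9.97 with MWCNT, 9.50, 8.76 and 8.69 with TiO2-NB and 8.27, 8.40 and 9.18 in the control (1.12 ± 0.23, adjusted p = 0.00104 by limma), although a dim probe set of TYMS gave -0.26 and was not called. RRM2, a subunit of ribonucleotide reductase, read 9.59, 9.40 and 9.37 with MWCNT, 8.79, 8.38 and 8.33 with TiO2-NB and 7.74, 8.01 and 8.48 in the control (0.95 ± 0.24). GINS2, part of the replicative helicase, differed by 0.84 ± 0.19. For TYMS, RRM2 and GINS2 MWCNT was clear of TiO2-NB, and TiO2-NB overlapped the control. CCNE2, a cyclin of S phase entry (1.09 ± 0.29), lost its call without replicate 2 of TiO2-NB (adjusted p = 0.0688). Without that array 10 replication genes were called, without replicate 3 of TiO2-NB 13, without replicate 1 of MWCNT 12, and 18 to 26 without any other of the 6.

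Of 37 mitosis and spindle genes 17 were higher with MWCNT (45.9%) and 1 with TiO2-NB, with a median of 0.51. ZWINT, a kinetochore protein, read 8.89, 8.84 and 8.77 with MWCNT, 8.11, 7.82 and 7.74 with TiO2-NB and 7.52, 7.62 and 8.04 in the control (0.94 ± 0.20). NDC80, which binds microtubules at the kinetochore, read 6.89, 6.89 and 7.07 with MWCNT, 6.07, 5.97 and 6.23 with TiO2-NB and 5.60, 5.83 and 5.49 in the control (0.86 ± 0.22). BUB1B, a checkpoint kinase (0.81 ± 0.18), and CDK1, the mitotic kinase (0.81 ± 0.21), followed, and in all 4 the materials did not overlap. CKS2, a small partner of CDK1, was the exception, at 9.36, 9.09 and 9.08 with MWCNT, 10.17, 9.73 and 9.91 with TiO2-NB and 8.55, 8.74 and 8.81 in the control (-0.76 ± 0.09). MKI67 (0.21), AURKA (-0.27) and PLK1 (-0.05) were not called. The count was 14 to 17 when single arrays were left out, 10 without replicate 1 of both materials and 26 with the replicate number as a block. CDK1 and CKS2 were named after their values were seen. Among 19 CDK inhibitors, D cyclins and p53 targets 2 were higher with MWCNT (10.5%) and 3 with TiO2-NB (15.8%). These shares are not far from the 14.0% and 10.9% of all genes, so the counts are no result about the list. GADD45A, a DNA damage gene, was higher with MWCNT (0.58 ± 0.09), and CDKN1A, the inhibitor p21, differed by -0.28 ± 0.10 (adjusted p = 0.0428), a call lost without any 1 MWCNT array or replicates 2 or 3 of TiO2-NB. The 3 became 1 without replicates 2 or 3 of MWCNT or 3 of TiO2-NB, and 5 with the replicate number as a block.

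**Figure D3:**
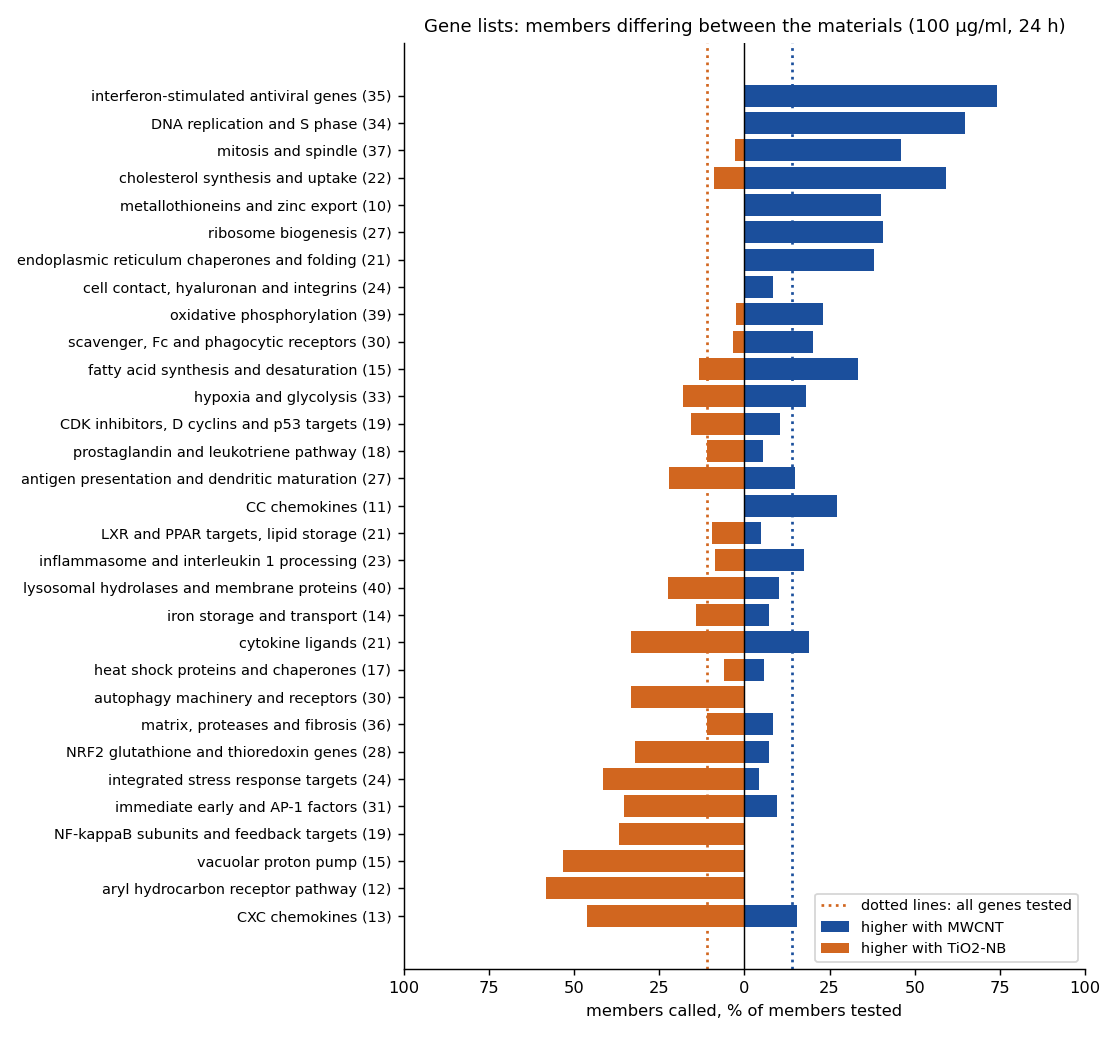
Percent of the measured members of each gene list called higher with MWCNT (blue, to the right) and higher with TiO2-NB (orange, to the left) at 100 µg/ml and 24 h, with the shares of all tested genes, 14.0% and 10.9%, as dotted lines. Interferon-stimulated genes reached 74.3% and DNA replication 64.7% on the MWCNT side, and the AHR pathway 58.3% and the proton pump 53.3% on the TiO2-NB side.

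Cholesterol synthesis genes were higher with MWCNT. Of 22 measured 13 were called higher with MWCNT (59.1%) and 2 with TiO2-NB, with a median of 0.39. MSMO1, a sterol methyl oxidase, read 10.88, 10.84 and 10.85 with MWCNT, 10.03, 9.87 and 9.92 with TiO2-NB and 10.46, 10.64 and 10.56 in the control, a difference of 0.92 ± 0.07 (adjusted p = 1.15e-08 by limma), and no group overlapped another. DHCR7, which makes the last step of cholesterol synthesis, read 7.07, 7.20 and 6.98 with MWCNT, 6.31, 6.05 and 6.31 with TiO2-NB and 6.48, 6.67 and 6.84 in the control (0.86 ± 0.15). SC5D, a sterol desaturase, differed by 0.82 ± 0.09. For these enzymes the control lay between the materials. TMEM97, a sterol-regulated membrane protein, read 8.48, 8.18 and 8.12 with MWCNT, 7.57, 7.04 and 6.80 with TiO2-NB and 6.93, 7.0 and 7.68 in the control (1.12 ± 0.20), and 1 of its 4 probe sets was not called (0.06). HMGCS1, an early enzyme of the pathway, differed by 0.34 ± 0.11 (adjusted p = 0.0289), a call lost without replicate 1 of MWCNT or replicates 2 or 3 of TiO2-NB. INSIG1, which holds SREBP factors back, went the other way, at 10.30, 10.06 and 10.09 with MWCNT, 10.66, 10.49 and 10.57 with TiO2-NB and 10.62, 10.68 and 10.48 in the control (-0.42 ± 0.10, named after its values were seen). SQLE (0.05) and LSS (-0.16) were not called. The count was 12 or 13 when single arrays were left out. The sterol regulatory element, searched as TCACNCCAC, stood in 1 of the 15 promoters of called members, that of SREBF2, against 1.15% of all promoters. The whole list, called or not, held it in 1 of 20 promoters (5%). The share was 1.06% of all genes tested, 0.66% of genes higher with MWCNT and 1.69% of genes higher with TiO2-NB.

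Among 15 fatty acid synthesis genes 5 were higher with MWCNT (33.3%) and 2 with TiO2-NB (13.3%). The 2 became none without replicate 1 of TiO2-NB or in a fit of the 6 arrays alone, and 1 without replicates 2 or 3 of either material. SCD, the stearoyl-CoA desaturase, read 10.19, 10.31 and 10.37 with MWCNT, 9.84, 9.88 and 9.75 with TiO2-NB and 9.72, 9.99 and 9.89 in the control (0.46 ± 0.08). Of the dimmer probe sets of SCD, that at 0.23 was called and those at 0.25 and 0.14 were not. ACACA, which makes malonyl-CoA (0.40 ± 0.07), and ELOVL5, a fatty acid elongase (0.26 ± 0.05), were called in the same direction. Of 21 LXR and PPAR targets 1 was higher with MWCNT (4.76%) and 2 with TiO2-NB (9.52%), both shares below those of all genes. The 2 became none without replicate 3 of TiO2-NB or in a fit of the 6 arrays alone. The 1 higher with MWCNT was PLTP, the phospholipid transfer protein. It read 7.12, 7.44 and 7.36 with MWCNT, 6.48, 6.32 and 6.62 with TiO2-NB and 6.36, 6.53 and 6.51 in the control (0.84 ± 0.08). The cholesterol exporter ABCG1 was not called (-0.04 ± 0.32).

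The vacuolar proton pump, which acidifies lysosomes, was higher with TiO2-NB. Of its 15 measured genes 8 were called, all higher with TiO2-NB (53.3%), and the other 7 had differences of -0.11 to -0.27, so that every member lay below 0. ATP6V1C1, a regulatory subunit, lay at 10.22 ± 0.11 with MWCNT, 11.03 ± 0.04 with TiO2-NB and 10.14 ± 0.13 in the control (-0.82 ± 0.09, adjusted p = 1.28e-06 by limma), and its dimmest probe set was not called (-0.07). ATP6V1H read 11.24, 11.07 and 11.03 with MWCNT, 11.69, 11.61 and 11.62 with TiO2-NB and 10.95, 11.04 and 11.17 in the control (-0.53 ± 0.08). In both TiO2-NB stood above MWCNT and the control, which overlapped. ATP6V1B2 (-0.33 ± 0.05) and ATP6V0D1 (-0.32 ± 0.05) were also called. The count was 7 to 9 when single arrays were left out, and 13 when arrays were centred on the median of the tested genes.

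Of 30 autophagy genes 10 were higher with TiO2-NB (33.3%) and none with MWCNT, with a median of -0.10. MAP1LC3B, the LC3 protein of autophagosome membranes, read 10.51, 10.19 and 10.21 with MWCNT, 10.87, 10.74 and 10.71 with TiO2-NB and 10.36, 10.43 and 10.60 in the control (-0.47 ± 0.08). RB1CC1, part of the initiating kinase complex (-0.57 ± 0.12), and ATG2A, a lipid transfer protein (-0.50 ± 0.11), were called too. Without replicate 3 of MWCNT 5 members were called. Of 40 lysosomal hydrolases and membrane proteins 9 were higher with TiO2-NB (22.5%, against 10.9% of all genes) and 4 with MWCNT (10%, against 14.0%), and the median was -0.04. NEU1, the lysosomal sialidase, read 9.89, 9.79 and 9.82 with MWCNT, 10.61, 10.52 and 10.54 with TiO2-NB and 10.01, 9.93 and 9.98 in the control (-0.72 ± 0.07). SGSH, a sulfatase (-0.61 ± 0.12), and MCOLN1, a lysosomal calcium channel (-0.48 ± 0.10), were higher with TiO2-NB, while CTSC, the protease cathepsin C, was higher with MWCNT (0.52 ± 0.05). The 4 higher with MWCNT became 2 without replicate 2 of MWCNT or 1 of TiO2-NB and 7 with the replicate number as a block. The 9 became 4 to 7 when single arrays were left out, with 4 without replicate 3 of MWCNT and 5 without replicate 2 of either material. The lysosomal counts are therefore taken as no result about the list.

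Stress programmes differed in direction. Of 28 NRF2, glutathione and thioredoxin genes 9 were higher with TiO2-NB (32.1%) and 2 with MWCNT, with a median of -0.15. SLC7A11, which imports cystine for glutathione, read 10.10, 9.59 and 9.48 with MWCNT, 11.25, 10.90 and 11.06 with TiO2-NB and 9.24, 9.45 and 9.92 in the control (-1.34 ± 0.25, adjusted p = 0.000492 by limma). TXNRD1, a thioredoxin reductase, read 11.46, 11.33 and 11.44 with MWCNT, 12.12, 12.04 and 12.02 with TiO2-NB and 11.09, 11.10 and 11.20 in the control (-0.65 ± 0.08). TiO2-NB stood above both other groups for SLC7A11 and TXNRD1. PGD, of the pentose phosphate pathway, differed by -0.67 ± 0.16. HMOX1, haem oxygenase, differed by -0.33 ± 0.11 (adjusted p = 0.0267), a call lost without replicate 1 of MWCNT or replicates 2 or 3 of TiO2-NB (adjusted p = 0.104, 0.0591 and 0.0711). The glutathione ligase subunits GCLM (-0.26) and GCLC (-0.08) were not called. The count was 8 or 9 when single arrays were left out.

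Of 24 targets of the integrated stress response 10 were higher with TiO2-NB (41.7%) and 1 with MWCNT, with a median of -0.19. PPP1R15A, which restores translation after stress, read 10.63, 10.43 and 10.43 with MWCNT, 11.01, 10.98 and 11.11 with TiO2-NB and 10.50, 10.38 and 10.55 in the control (-0.54 ± 0.07). DDIT4, an inhibitor of mTOR (-0.63 ± 0.12), SLC3A2, an amino acid transporter chain (-0.63 ± 0.14), and the factor ATF4 itself (-0.42 ± 0.08, named after its values were seen) were called in the same direction. ASNS (0.17) and TRIB3 (0.13), other ATF4 targets, were not called. The count was 7 to 10 when single arrays were left out. Of 21 endoplasmic reticulum chaperones 8 were higher with MWCNT (38.1%) and none with TiO2-NB. HSP90B1, the chaperone GRP94, read 8.78, 9.0 and 8.97 with MWCNT, 8.0, 8.06 and 8.29 with TiO2-NB and 9.30, 9.34 and 8.90 in the control (0.80 ± 0.16), so TiO2-NB was the low group. MANF, a secreted stress protein, differed by 0.45 ± 0.10. The chaperone BiP, HSPA5 (0.16), was not called, and without replicate 3 of MWCNT 4 members and without replicate 1 of TiO2-NB 5 members were called.

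The following 3 groups had few called members. Most of their shares were not far from the background (14.0% for MWCNT, 10.9% for TiO2-NB), except 3.33% and 22.2% on the TiO2-NB side. The counts of all 3 groups are taken as no result and single members are described. Among 30 scavenger, Fc and phagocytic receptors 6 were higher with MWCNT (20%) and 1 with TiO2-NB (3.33%). MARCO, a scavenger receptor that binds unopsonised particles, read 7.93, 7.54 and 7.46 with MWCNT, 6.84, 6.64 and 6.80 with TiO2-NB and 6.94, 6.89 and 6.96 in the control (0.88 ± 0.19, adjusted p = 0.00164 by limma), and the MWCNT arrays stood above the rest. The beta-glucan receptor CLEC7A (0.57 ± 0.15) lost its call without replicate 1 of MWCNT, which left 3 called members. Among 27 genes of antigen presentation and dendritic maturation 4 were higher with MWCNT (14.8%) and 6 with TiO2-NB (22.2%). The former included CD74, the class II invariant chain, at 8.15, 8.27 and 8.13 with MWCNT, 7.52, 7.68 and 7.79 with TiO2-NB and 7.77, 7.78 and 7.70 in the control (0.53 ± 0.10), and the latter CCR7 and CD83. Without replicate 2 of TiO2-NB the 6 became 3, and without replicate 3 of MWCNT 4, and with the replicate number as a block the 4 became 7. Of 23 inflammasome genes 4 were higher with MWCNT (17.4%) and 2 with TiO2-NB (8.7%). The 2 became none without replicate 2 of MWCNT or replicates 1 or 2 of TiO2-NB, and 1 without any other of the 6 arrays. The 4 were led by the DNA sensor AIM2 (1.32 ± 0.30, adjusted p = 0.00261), whose MWCNT arrays read 6.52, 7.99 and 8.03 against 5.78, 6.49 and 6.31 with TiO2-NB. AIM2 was not called in a fit of the 6 arrays alone, and the count higher with MWCNT was 1 without replicate 1 of MWCNT and 2 without replicate 2 of MWCNT.

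At the lower dose the materials differed in the same direction for most of these genes but by less. The arrays at 10 µg/ml are separate from those at 100 µg/ml, and between them only ANKRD11 was called (0.00995% of genes), at 1.27 ± 0.20 (adjusted p = 0.0107 by limma). That call was lost without replicates 1 or 3 of MWCNT or 2 or 3 of TiO2-NB at that dose. Of the 2505 genes called at 100 µg/ml 2196 had the same sign at 10 µg/ml (87.7%, against 72.9% of all genes), and 469 of the 495 with differences of at least 1.5-fold did (94.7%). The same sign was held by 93.6% of those higher with MWCNT and 80.1% of those higher with TiO2-NB, where 55.4% of all genes had a positive difference at 10 µg/ml. The median difference in the direction of the higher dose was 0.11, against a median size of 0.37 at 100 µg/ml, and differences at both doses correlated at 0.63 (Pearson) across all genes, which are not independent. The median of the interferon list was 0.21 at 10 µg/ml, that of DNA replication 0.10, of the CXC chemokines -0.20 and of the AHR pathway -0.16.

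At 1 h with 100 µg/ml, again on other arrays, 143 genes differed (1.42%), of which 114 were higher with MWCNT (1.13%) and 29 with TiO2-NB (0.289%). That count was 6 to 127 when single 1 h arrays were left out, with 6 without replicate 2 of TiO2-NB, 10 without replicate 2 of MWCNT, 18 without replicate 3 of TiO2-NB, 59 without replicate 3 of MWCNT and 76 without replicate 1 of MWCNT. Of the 2505 genes 857 had the same sign at 1 h as at 24 h (34.2%, against 38.9% of all genes), 3 of them called at both times, and 44 were called with the opposite sign. At 1 h 39.9% of all genes had a positive difference. The sign was kept by 21.5% of the genes higher with MWCNT at 24 h and by 50.6% of those higher with TiO2-NB. Differences at both times correlated at -0.22 (Pearson) across all genes, which are not independent. The medians of the interferon list (-0.06), DNA replication (-0.09), the CXC chemokines (-0.03) and the AHR pathway (0.03) were near 0.

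**Figure D4:**
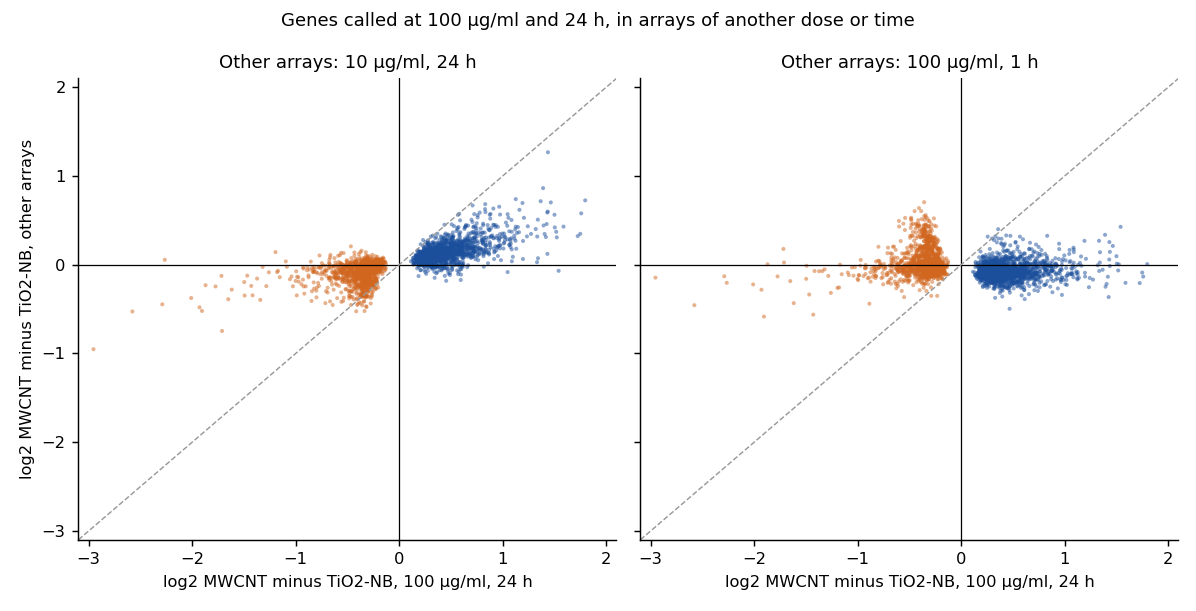
Difference between the materials (log2, MWCNT minus TiO2-NB) for the 2505 genes called at 100 µg/ml and 24 h (x axis) against the difference at 10 µg/ml and 24 h (left panel) and at 100 µg/ml and 1 h (right panel), with genes higher with MWCNT in blue, genes higher with TiO2-NB in orange and a dashed line of equality. At 10 µg/ml 87.7% of the genes keep their sign at smaller differences, and at 1 h 34.2% do.

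Tests of the change in the difference gave 179 genes that depended on dose at 24 h (1.78%, with 0.706% changing towards MWCNT and 1.07% towards TiO2-NB) and 2263 that depended on time at 100 µg/ml (22.5%, with 12.0% and 10.5%). The dose count was 94 to 204 when single arrays were left out, and was lower by more than 1.5 times without replicates 1 or 2 of MWCNT at 10 µg/ml (97 and 118), replicates 2 or 3 of MWCNT at 100 µg/ml (95 and 94) or replicate 3 of TiO2-NB at 100 µg/ml (103). NPTX1 lay at 8.96 ± 0.58 in the 24 h control, 7.85 ± 0.24 and 5.66 ± 0.23 with 10 and 100 µg/ml MWCNT, and 8.80 ± 0.47 and 8.61 ± 0.52 with the same doses of TiO2-NB. CYP1B1 lay at 10.68 ± 0.08 in the control, 10.02 ± 0.19 and 8.24 ± 0.50 with MWCNT and 10.55 ± 0.14 and 10.81 ± 0.18 with TiO2-NB. For both genes the MWCNT mean was lower at the higher dose, and the TiO2-NB arrays at 100 µg/ml overlapped the control. CCR7 lay at 4.34 ± 0.17 in the control, at 4.77 ± 0.19 and 5.99 ± 0.11 with MWCNT and at 4.89 ± 0.16 and 7.71 ± 0.36 with TiO2-NB, so the difference was -0.13 at 10 µg/ml and -1.72 at 100 µg/ml. TM7SF3 lay at 6.38 ± 0.22 in the control, at 6.42 ± 0.12 and 6.33 ± 0.19 with MWCNT and at 5.70 ± 0.27 and 4.54 ± 0.38 with TiO2-NB.

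The controls themselves differed between the times for some of these genes. IFI44L lay at 7.21 ± 0.30 in the 1 h control and 5.32 ± 0.33 in the 24 h control, with 7.31 ± 0.33 and 7.52 ± 0.22 at 1 h for MWCNT and TiO2-NB. TRIM22 lay at 8.32 ± 0.10 in the 1 h control and 6.50 ± 0.13 in the 24 h control. At 24 h the MWCNT level of TRIM22 (8.0 ± 0.41) was thus nearer to that of the 1 h cells than the TiO2-NB level (6.48 ± 0.13) was. CEMIP lay at 6.43 ± 0.51 in the 1 h control and 9.82 ± 0.32 in the 24 h control, and VCAM1 at 4.21 ± 0.21 and 5.78 ± 0.10.

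**Figure D5:**
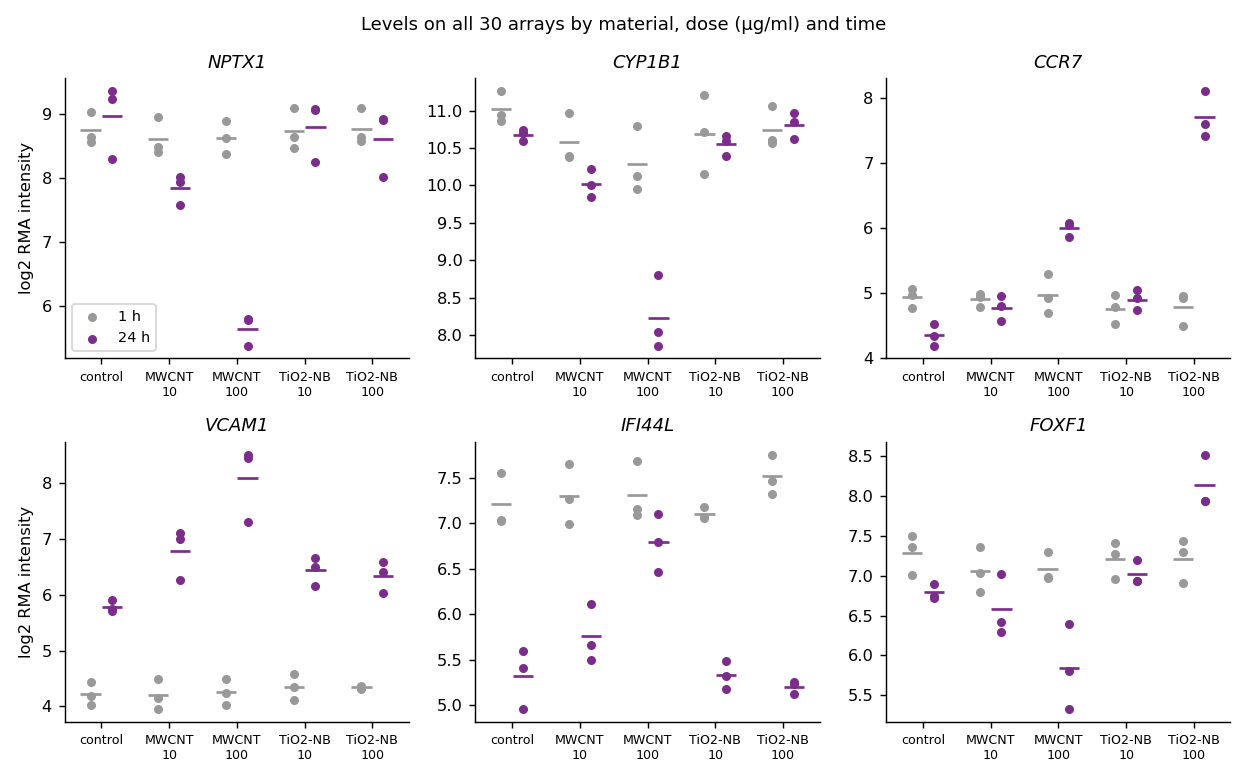
Log2 levels of NPTX1, CYP1B1, CCR7, VCAM1, IFI44L and FOXF1 on all 30 arrays, by material and dose in µg/ml (x axis), with 1 h in grey, 24 h in purple and a line at each group mean. The materials overlap at 1 h and stand apart at 100 µg/ml and 24 h, where NPTX1 lies at 5.66 ± 0.23 with MWCNT and 8.61 ± 0.52 with TiO2-NB.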

How the data were processed

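RNA of THP-1 cells was hybridised to Affymetrix 3-prime expression arrays. The deposited tables hold log2 intensities, summarised per probe set by the authors with RMA (per the submitters' processing notes, version not given), and were used without further normalization. Gene names came from the platform annotation given with the data. Of 22277 probe sets 62 were controls, 19064 named 1 gene and were eligible, 1043 named several and 2108 none. Eligible probe sets needed values over the 25th percentile of the array on 3 arrays or more. For each gene the brightest one on average was taken (3419 genes had several), giving 10050 genes. Of 951 called genes with several probe sets, all probe sets had the same sign in 742. In 34 a probe set was called in the opposite direction. Besides the genes where this is stated, CCL23, HMGCS1, INSIG1, NLRP1 and STC2 had another probe set that was not called.

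In R 4.3.3, limma 3.58.1 fitted all 30 arrays with 10 group means (lmFit, eBayes, moderated two-sided test). P-values were adjusted by the Benjamini-Hochberg method over the whole table for every comparison, with calls at an adjusted p under 0.05. An exact permutation test of 3 against 3 arrays cannot give a p below 0.1, so none was used. P-values measure the spread between these arrays, which may be partly technical. On simulated data of the comparison at 100 µg/ml and 24 h, with 10050 genes, 73% of 100 genes changed by 0.5 on the log2 scale and 96% of 100 changed by 1 were called, with 13 false calls. The simulated noise was normal and independent between genes and arrays, with no deviation shared by equally numbered arrays. The 13 false calls are therefore no estimate of those in the real comparison.

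Equally numbered arrays of both materials at 100 µg/ml and 24 h deviated together from their group means (r = 0.62, 0.44 and 0.36). The numbers were therefore taken to pair them, and a fit with the replicate number as a block is among the alternatives. Replicates 2 and 3 of different materials also gave r = 0.30 and 0.195, and replicate 1 with an unequal number -0.36 to -0.49. The values thus set replicate 1 apart more clearly than they pair replicates 2 and 3 by number.

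All members and lists were selected with earlier results of these data known. The rule named the 15 largest differences each way whose arrays did not overlap, up to 4 called members per list, up to 6 genes each way called on opposite sides of the control, the 6 largest each way that depended on dose or on time, and a few fixed genes: ABCG1, CCL2, CDKN1A, CXCL8, HMGCS1, HMOX1, IL1B, MT2A and TNF. Named after their values were seen were also CYBB, AIF1, CSF1R, PDGFRA, FAP, MYB, MYC, EBI3 and list members given only as not called or, as SREBF2, only for a motif. Lists were described by counts and medians, with no test of a list. Promoters are those of RefSeq on GRCh38.p14, matched by symbol for 8129 of the tested genes. The alternatives changed the arrays in the fit, the block, the scaling, the filter on dim probe sets, the probe set rule, the prior variance and the array weights, and left out single arrays.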

Additional observations from a re-analysis of the deposited data

Results flagged for a closer look

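The materials differed from each other by different amounts at 10 and 100 µg/ml for 179 genes, by an interaction test in the fit of all arrays. The change in the difference (at 100 minus at 10 µg/ml, 24 h, log2) was positive for CCL19 (1.61), VCAM1 (1.40), DAZL, a germ cell RNA-binding protein (1.30), IFI44L (1.16), TRIM22 (1.15) and SPINK1, a trypsin inhibitor (1.13). It was negative for CYP1B1 (-2.05), NPTX1 (-2.0), FOXF1 (-1.84), IL24 (-1.64), NR4A3 (-1.64) and CCR7 (-1.59). DAZL read 5.05, 4.93 and 5.21 with 100 µg/ml MWCNT, 3.97, 3.73 and 3.50 with TiO2-NB and 3.35, 3.00 and 3.38 in the control, and its means at 10 µg/ml were 3.46 ± 0.18 and 3.43 ± 0.37. DAZL exceeded its array's 25th percentile with 100 µg/ml MWCNT at 24 h, on all 3 arrays, and on no other of the 30, so it entered the test through the group where it is high, and both its difference and its dose term are taken against dim values. SPINK1 was called above the control with both materials at 100 µg/ml, by 2.08 with MWCNT and 1.03 with TiO2-NB. It lay above that percentile on 3 MWCNT and 2 TiO2-NB arrays and nowhere else.

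The materials also differed by different amounts at 1 and 24 h for 2263 genes, by the same kind of test at 100 µg/ml. The change in the difference (at 24 h minus at 1 h) was 1.93 for CEMIP, 1.89 for NAA15, 1.84 for VCAM1, 1.79 for IFI44L, TM7SF3 and GPR18, and -2.81 for NPTX1, -2.16 for FOXF1, -2.12 for CYP1B1, -2.06 for NR4A2, -1.90 for CCR7 and -1.88 for IL24. GPR18, a lipid-sensing receptor, read 6.44, 6.14 and 5.88 with MWCNT at 24 h, 4.97, 4.73 and 4.49 with TiO2-NB and 5.99, 5.89 and 6.08 in the control. NR4A2 stood at 7.32 ± 0.81 in the 1 h control and 4.30 ± 0.15 in the 24 h control.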

How the results depend on the processing

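Over all alternatives the 2505 genes called between the materials became 1797 to 2325 when single arrays were left out and 3781 with array weights. Genes higher with MWCNT numbered 1035 to 1355 without single arrays and 2137 of 15309 when every kept probe set was tested. Genes higher with TiO2-NB numbered 725 to 970 without single arrays, 711 in a fit of the 6 arrays alone, 1773 with array weights, and, in alternatives chosen after seeing the data, 708 without replicate 1 of both materials and 1646 with each array centred on the median of the tested genes. At 10 µg/ml the single called gene became 0 to 1 without single arrays, 0 in a fit of those 6 arrays alone, 2 with the tested genes' median and 194 with array weights. At 1 h the 143 genes became 6 to 127 without single arrays, 0 in a fit of those arrays alone, 0 with a filter at the array median and 227 with array weights. Dependence on dose, 179 genes, became 94 to 204 and 875 with array weights, and dependence on time, 2263 genes, became 1711 to 2268 without single arrays. The causes of these changes were not tested.

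With the replicate number as a block over the 6 paired arrays 3446 genes were called, 1902 higher with MWCNT and 1544 with TiO2-NB, and with the block over all 30 arrays 2600. Among the 177 named genes the pairing added the call of EBI3 and removed that of NLRP1, an inflammasome sensor (adjusted p = 0.13), and changed no other call. Of the 171 named genes called, 109 kept their call under each alternative run for named genes and 62 lost it under at least 1. CCND1, cyclin D1 (-0.25 ± 0.06), changed sign to 0.0718 (adjusted p = 0.606) with the mean of its probe sets. With the block 4 fatty acid synthesis genes were higher with TiO2-NB, and 4 LXR and PPAR targets were higher with either material. The medians of the lists for interferon, replication, mitosis, cholesterol, AHR, CXC chemokines and the proton pump kept their sign under each alternative. An array gives no read depth, and 3 arrays a group limit what can be called.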

Other observations

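Several gene groups have not been described yet. Of 27 ribosome biogenesis genes 11 were higher with MWCNT (40.7%, against 14.0% of all genes) and none with TiO2-NB, led by UTP20, a processing factor of the small ribosomal subunit, at 8.54, 8.42 and 8.40 with MWCNT, 7.95, 7.42 and 7.56 with TiO2-NB and 7.80, 8.01 and 8.25 in the control (0.81 ± 0.12). WDR12 (0.43 ± 0.08) was also called, and the count was 7 without replicate 1 of MWCNT or replicate 3 of TiO2-NB. Of 39 nuclear-encoded oxidative phosphorylation genes 9 were higher with MWCNT (23.1%) and 1 with TiO2-NB, led by NDUFB6 of complex I (0.36 ± 0.06), and 3 were higher with MWCNT when arrays were centred on the median of the tested genes and 2 in a fit of the 6 arrays alone. Of 33 hypoxia and glycolysis genes 6 were higher with each material (18.2%, against 14.0% and 10.9% of all genes). The counts became 3 with MWCNT without replicate 3 of MWCNT and 3 with TiO2-NB without replicate 2 of TiO2-NB. NDRG1, a hypoxia-induced gene, read 9.46, 9.31 and 9.36 with MWCNT, 10.20, 10.20 and 10.19 with TiO2-NB and 9.81, 9.69 and 9.84 in the control (-0.82 ± 0.09), and no group overlapped another.

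Of 10 metallothionein and zinc transport genes 4 were higher with MWCNT (40%, against 14.0% of all genes). The 4 became 2 without replicates 1 or 2 of MWCNT or 3 of TiO2-NB. They became 1 without replicate 3 of MWCNT or replicate 2 of TiO2-NB, and none in a fit of the 6 arrays alone. The zinc exporter SLC30A1 read 9.51, 8.71 and 8.72 with MWCNT, 8.64, 7.81 and 8.03 with TiO2-NB and 8.88, 9.03 and 9.19 in the control (0.82 ± 0.18, not called in that fit at an adjusted p of 0.0784), and MT2A differed by 0.31 ± 0.11 (adjusted p = 0.0366), a call lost without any 1 MWCNT array or replicates 2 or 3 of TiO2-NB. Of 14 iron genes 1 was higher with MWCNT (7.14%) and 2 with TiO2-NB (14.3%), below and not far from the background. Of 17 heat shock genes 1 was higher with each material (5.88%, below the background either way). The 2 iron genes became 1 without any 1 array other than replicate 1 of TiO2-NB, and the heat shock gene higher with MWCNT was lost without any 1 of the 6 arrays. BAG3, a co-chaperone, was higher with TiO2-NB (-0.38 ± 0.09). Of 24 cell contact and hyaluronan genes VCAM1 and CEMIP were called, both higher with MWCNT (8.33%, below the background). Of 36 matrix and protease genes 3 were higher with MWCNT (8.33%), MMP8 among them, and 4 with TiO2-NB (11.1%), THBD among them. The matrix shares are below and near the background, so these counts are no result. With the replicate number as a block 11 matrix genes were higher with TiO2-NB, and 5 cell contact genes were higher with MWCNT and 3 with TiO2-NB. Of 10 promyelocyte markers only MYB was called (10%, below the background). It was higher with MWCNT (0.51 ± 0.17, adjusted p = 0.0297 by limma), a call lost without any 1 MWCNT array or replicates 2 or 3 of TiO2-NB.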
